A study of Homo sapiens with 6 samples.

Results

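The BCL2 family decides whether the outer mitochondrial membrane stays closed. Its anti-apoptotic members (BCL2, BCL2L1 or BCL-XL, BCL2L2 or BCL-W, and MCL1) bind and hold back the effectors BAK and BAX, which otherwise open pores that release cytochrome c. The BH3-only members (BID, BAD, BCL2L11 or BIM, BIK and BMF) are the stress sensors that occupy the anti-apoptotic proteins or engage the effectors directly. The 10 genes described here are those 4 anti-apoptotic genes, the effector BAK1 and those 5 BH3-only genes. They were taken by gene symbol, and 10 of the 61806 genes in the deposited table matched.

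The cells were U87-MG, an established human glioblastoma line. The 6 RNA libraries comprised 3 negative controls (NC, genotype label wildtype) and 3 titled GRIK1 siRNA (genotype label GRIK1 knockdown). GRIK1 encodes a kainate-type glutamate receptor subunit, and the series description names an shRNA where the titles name siRNA. The labels do not settle whether the numbers 1 to 3 of the second group are replicates or siRNA sequences. The study's text describes several siRNA sequences and the choice of the first for later work, without naming the one in these libraries. Nothing states that the libraries of a group came from separate cultures, so p-values measure the spread between these libraries, which may be technical.

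Each library held between 11099909 and 14006968 counted reads. GRIK1 itself had 18, 9 and 8 counts in NC libraries 1 to 3, against 15, 20 and 20 in the siRNA-labelled libraries. In these few counts the targeted gene was thus no lower in the knockdown group than in NC. An edgeR fit that kept all detected genes gave GRIK1 a log2 fold change of 0.44 ± 0.43 (SE, edgeR adjusted p = 0.620). The counts are too few to measure a knockdown closely, and the study's text reports an efficient one in U87-MG cells. The 3 libraries of the knockdown group are named by their label only, as siRNA-labelled. NC library 3 stood apart. Across genes its log2 CPM values had a Pearson correlation of 0.964 and 0.968 with the other NC libraries, against 0.990 between those 2. The siRNA-labelled libraries correlated with those 2 at 0.980 to 0.982, so NC library 3 was less like them than the siRNA-labelled libraries were. The fold changes that the results turn on are therefore also given without NC library 3. Among 8 glioma and astroglial markers, VIM, CD44 and TNC were high, with 825 to 1076 FPKM for VIM. GFAP, S100B and SOX2 were at or below 0.28 FPKM in each library. NES was at or below 0.69 FPKM and CHI3L1 had 1.70 to 3.53. TNC had 24.8 FPKM in NC library 3 and at least 144 in the other 5. Immune, endothelial and oligodendrocyte markers each summed to at most 0.45 FPKM in any library, neuronal markers to 1.88 to 2.81 in NC and 2.47 to 2.62 in the siRNA-labelled libraries, and epithelial markers to 5.38 to 6.39 and 4.58 to 5.81.

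The start regions of the genes that the results turn on are shown first, as short windows from the RefSeq promoter table (GRCh38.p14, 250 bases before to 50 after a start). The table held 7 of the 10 genes and lacked MCL1, BCL2L2 and BIK. Each window is 30 bases on the gene's own strand, 5′ to 3′, and capitals mark the motif. They show BID and BAD, which had the largest fold changes among the tested genes of the 10, and BCL2L11 and BAK1, whose fold changes had the opposite sign.
BID, E-box, chr22:17774072-17774101, minus strand: ttgtgtcctctcCACGTGgcctggggattc
BAD, cyclic AMP response core, chr11:64284741-64284770, minus strand: gacctacccgagTGACGTtccgagaggtga
BAD, GC box, chr11:64284786-64284815, minus strand: gatccggcggggGGGCGGggccgggccggg
BCL2L11, FOXO motif, chr2:111120680-111120709, plus strand: gagttactccgGTAAACAcgccagggacgg
BAK1, GC box, chr6:33580337-33580366, minus strand: ggtggggaaagtGGGCGGgacatgctcctg

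Both strands were searched for 6 motifs, and none of the motifs shown overlapped another. In the GENCODE 29 annotation the BID and BCL2L11 windows lie in introns, since these genes also have starts further upstream, and the BAD and BAK1 windows lie upstream of the gene. A gene may have several promoters in the table (BID has 5, and BAD, BCL2L1 and BMF have 2 each), and it was counted where any of them held the motif, as were all 27305 genes of the table. The E-box CACGTG was found in BID alone of the 7 genes, in 8.77% of all genes and in 7.26% of the 35116 single promoters. TGACGT was found in BAD alone, in 9.64% of genes and 7.98% of promoters. The FOXO motif GTAAACA was found in BCL2L11 alone, in 4.19% of genes and 3.42% of promoters. GGGCGG was found in 6 of the 7, in 48.3% of genes and 45.0% of promoters. The E2F motifs TTTGGCGC and TTTCCCGC, in 0.795% and 1.98% of genes and 0.652% and 1.63% of promoters, were found in 0 of the 7. A match is a description of the letters, with no measurement of binding.

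MCL1 was the most abundant of the 10 transcripts per length in both groups. FPKM divides each count by the exonic length and by the library total, so it can be compared between genes. In the NC libraries the order of mean FPKM was MCL1, BID, BAD, BCL2L1, BCL2L2, BAK1, BMF, BCL2L11, BCL2 and BIK, and only the ranges of the neighbours BID and BAD overlapped. In the siRNA-labelled libraries BCL2L1 stood before BAD, with overlapping ranges. BCL2L2 and BAK1 also overlapped there, as did BCL2 and BIK. BCL2, the founding member of the family, was close to silent at 0.277 ± 0.0404 FPKM (SD, n = 3) in the NC libraries, while MCL1 had 38.9 ± 2.89 FPKM.

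**Figure D1:**
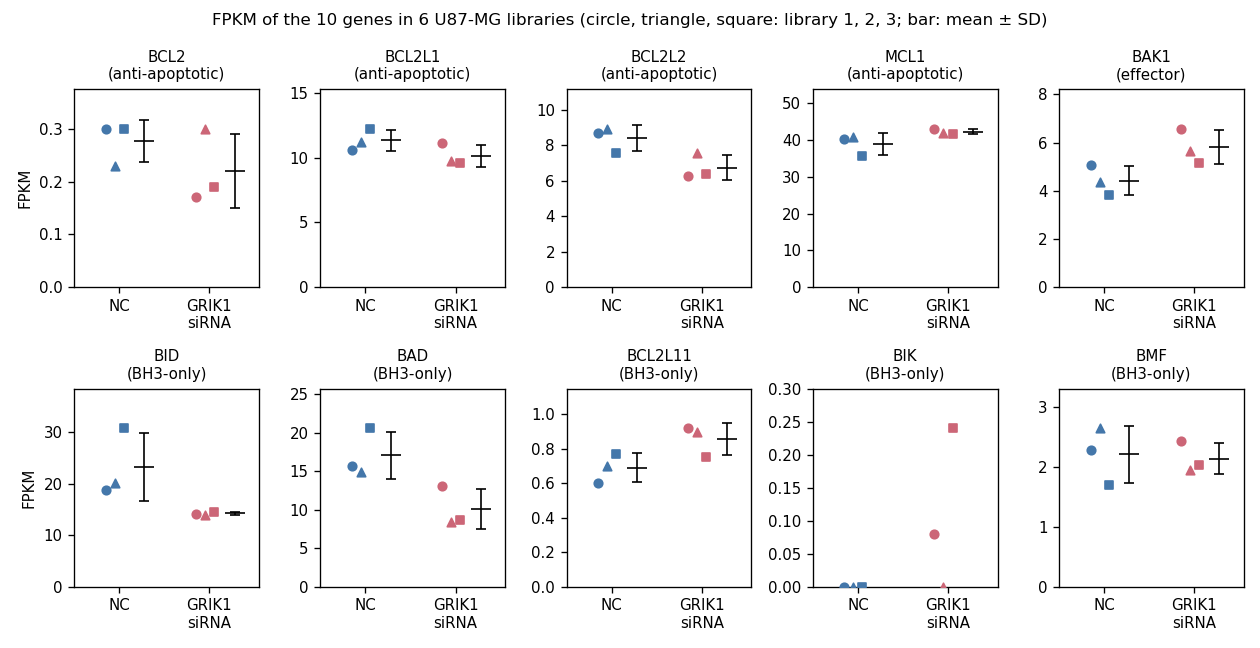
FPKM (vertical axis, from 0, with its own scale in each panel) of each gene in the 3 NC libraries (blue) and the 3 siRNA-labelled libraries (red), with the mean and SD beside them except for BIK. BID and BAD are lower in all 3 red libraries, and NC library 3 (blue square) is the highest for both, at 30.8 and 20.6 FPKM.

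Among the anti-apoptotic genes, MCL1 (ENSG00000143384, chromosome 1 from 150560895 to 150579738) encodes a short-lived protein on which many tumour cells depend. Its FPKM was 40.3, 40.8 and 35.6 in NC libraries 1 to 3, against 43.1, 41.9 and 41.8 in the siRNA-labelled libraries. The groups did not overlap, but the gap was small. After TMM scaling, which corrects for library composition, the highest NC library had 253.5 and the lowest siRNA-labelled library 254.1 normalized CPM. In bulk RNA, fewer expressing cells and less RNA per cell cannot be told apart. The log2 fold change was 0.03 ± 0.11 (SE, edgeR adjusted p = 0.858), and 0.03 without NC library 3 (adjusted p = 0.608).

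BCL2L2 (ENSG00000129473, chromosome 14 from 23298790 to 23311751) had 8.71, 8.93 and 7.57 FPKM in NC and 6.27, 7.55 and 6.40 in the others. All 3 siRNA-labelled libraries were below the NC libraries, the nearest by 7.55 against 7.57. In normalized CPM the gap was wider, with 41.26 in the lowest NC library and 35.59 in the highest siRNA-labelled library. The log2 fold change was -0.40 ± 0.12 (SE, edgeR adjusted p = 0.110). Without NC library 3 it was -0.41 (standard error 0.09) and passed, with an adjusted p of 0.00182. BCL2L2-PABPN1, a readthrough gene on the same strand that shares part of this locus, went the other way, with 27, 31 and 35 counts in NC and 68, 61 and 60 in the others. Its log2 fold change was 0.85 (adjusted p = 0.0672) and 0.90 without NC library 3 (adjusted p = 0.00615). Reads from shared exons cannot be told apart between the 2 genes, so the count of each is uncertain. On the opposite strand PPP1R3E and HOMEZ overlap BCL2L2. PPP1R3E had 195, 163 and 138 counts in NC and 137, 130 and 141 in the others, a log2 fold change of -0.46 (adjusted p = 0.183) and -0.62 without NC library 3 (adjusted p = 0.000899). HOMEZ had -0.37 (adjusted p = 0.199) and -0.40 (adjusted p = 0.0441) in the same fits. Both had the sign of BCL2L2, and whether the counting used strand is not given in the sources used here.

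BCL2L1 (ENSG00000171552, chromosome 20 from 31664452 to 31723989) had 10.6, 11.2 and 12.2 FPKM in NC and 11.1, 9.72 and 9.59 in the others. The groups overlapped, with siRNA-labelled library 1 inside the NC range. Its log2 fold change was -0.26 ± 0.14 (SE, edgeR adjusted p = 0.301), and -0.13 without NC library 3 (adjusted p = 0.252). Gene-level counts do not separate its long anti-apoptotic transcript from the short pro-apoptotic one, and the same holds for MCL1. BCL2 (ENSG00000171791, chromosome 18 from 63123346 to 63320128) had 42, 32 and 53 counts in NC and 26, 48 and 32 in the others. It lay under the filter of a mean of 0.5 FPKM and was not tested with the other genes. In a fit that kept all detected genes it had a log2 fold change of -0.45 ± 0.31 (SE, edgeR adjusted p = 0.50).

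The effector BAK1 (ENSG00000030110, chromosome 6 from 33572547 to 33580293) had 5.05, 4.35 and 3.84 FPKM in NC and 6.57, 5.66 and 5.17 in the others. All 3 siRNA-labelled libraries were above the 3 NC libraries. The difference did not pass the test, with a log2 fold change of 0.31 ± 0.16 (SE, edgeR adjusted p = 0.259) and 0.28 without NC library 3 (adjusted p = 0.144).

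Among the BH3-only genes, BID (ENSG00000015475, chromosome 22 from 17734138 to 17774770) links death receptors to mitochondria, because caspase 8 cleaves its protein into the active form. It had 18.8, 20.1 and 30.8 FPKM in NC libraries 1, 2 and 3. The siRNA-labelled libraries were close together and all lower, at 14.1, 14.0 and 14.5 FPKM. The log2 fold change was -0.82 ± 0.24 (SE, edgeR adjusted p = 0.102), a level of 0.568 of NC. NC library 3 was 1.80 times the mean of the other NC libraries in normalized CPM. Without that library the log2 fold change shrank to -0.47, its standard error to 0.06 and its adjusted p to 1.29e-05, a level of 0.720 of NC.

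BAD (ENSG00000002330, chromosome 11 from 64269830 to 64284704) encodes a BH3-only protein that growth factor signalling keeps phosphorylated and bound to 14-3-3 proteins. It had 15.7, 14.8 and 20.6 FPKM in the NC libraries. The siRNA-labelled libraries had 13, 8.40 and 8.69 FPKM, so library 1 of this group was nearer to the NC range than to the other 2. Its log2 fold change was -0.87 ± 0.24 (SE, edgeR adjusted p = 0.0935), and -0.63 without NC library 3 (standard error 0.15, adjusted p = 0.00248). GPR137 covers most of BAD on the opposite strand. GPR137 had 293, 350 and 274 counts in NC and 255, 258 and 230 in the others, with a log2 fold change of -0.48 (adjusted p = 0.136) and -0.60 without NC library 3 (adjusted p = 0.000426). Without strand, reads from the part that the 2 genes share cannot be told apart, so the count of each is uncertain.

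BCL2L11 (ENSG00000153094, chromosome 2 from 111119378 to 111168445) encodes BIM, which binds every anti-apoptotic member. It was low, at 0.60, 0.70 and 0.77 FPKM in NC and 0.92, 0.90 and 0.75 in the others, which overlapped. The log2 fold change was 0.21 ± 0.21 (SE, edgeR adjusted p = 0.548) and 0.38 without NC library 3 (adjusted p = 0.161). BMF (ENSG00000104081, chromosome 15 from 40087890 to 40108892), a sensor of lost attachment, had 2.28, 2.64 and 1.70 FPKM against 2.43, 1.95 and 2.02. These groups overlapped too, with a log2 fold change of -0.13 ± 0.18 (SE, adjusted p = 0.672) and -0.23 without NC library 3 (adjusted p = 0.200). BIK (ENSG00000100290, chromosome 22 from 43110750 to 43129712) was at 0 in NC throughout, and its counts were 1, 0 and 3 in the siRNA-labelled libraries. A count of 0 allows up to 3 counts (95% limit, counting error only), so a fold for BIK has little meaning. The fit that kept all detected genes gave BIK a log2 fold change of 3.45 ± 2.05 (SE, edgeR adjusted p = 0.426).

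In all, 18 annotated genes overlapped a family gene, of which 8 were tested, among them the 4 described beside BCL2L2 and BAD. MIR4435-2HG, opposite to BCL2L11, had a log2 fold change of 0.09 (adjusted p = 0.812) and 0.37 without NC library 3 (adjusted p = 0.0118). BCL2L1-AS1, RN7SL600P in MCL1 and MIR3198-1 in BID had at most 8, 3 and 2 counts in any library, and none of these 3 passed in either fit. The other 10 lay under the filter, 7 of them with a symbol. These were ABALON at BCL2L1, ADAMTSL4, ADAMTSL4-AS1 and RN7SL473P at MCL1, GGNBP1 at BAK1, ACOXL at BCL2L11 and BMF-AS1 at BMF.

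Summed as FPKM over the family genes described here, the anti-apoptotic level overlapped between the groups. The BH3-only level was lower in all 3 siRNA-labelled libraries. FPKM is scaled to the library total without TMM. The TMM factor was 0.891 in NC library 3 and 1.01 to 1.03 in the other libraries. The anti-apoptotic overlap therefore holds only for FPKM without TMM. Divided by the TMM factor of its library, the anti-apoptotic sum was lower in all 3 siRNA-labelled libraries, by a small gap. The values below are without TMM. The summed FPKM of the 4 anti-apoptotic genes was 60.0, 61.2 and 55.7 in NC and 60.7, 59.5 and 57.9 in the others. The summed FPKM of the 5 BH3-only genes was 37.3, 38.2 and 53.8 in NC and 30.6, 25.2 and 26.2 in the others. BID and BAD made up 88.5% to 95.4% of that sum in each library. The ratio of the anti-apoptotic to the BH3-only sum was 1.607, 1.599 and 1.035 in NC and 1.98, 2.36 and 2.21 in the others, without overlap. The sum and ratio leave out the BH3-only genes PMAIP1 and BBC3. PMAIP1 had 13.6, 14.4 and 23.2 FPKM in NC and 13.1, 14.9 and 16.3 in the others, which overlapped. BBC3 had 5.32, 5.96 and 3.27 FPKM in NC and was higher in the others, at 7.48, 7.41 and 6.06. In normalized CPM its groups overlapped, with 18.95 in NC library 2 and 18.89 in siRNA-labelled library 3. MCL1 took 66.0 ± 1.82% (SD, n = 3) of the anti-apoptotic FPKM in NC and 71.2 ± 0.820% in the others. These sums describe RNA and were not tested, since the genes were chosen with earlier results of these data known.

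**Figure D2:**
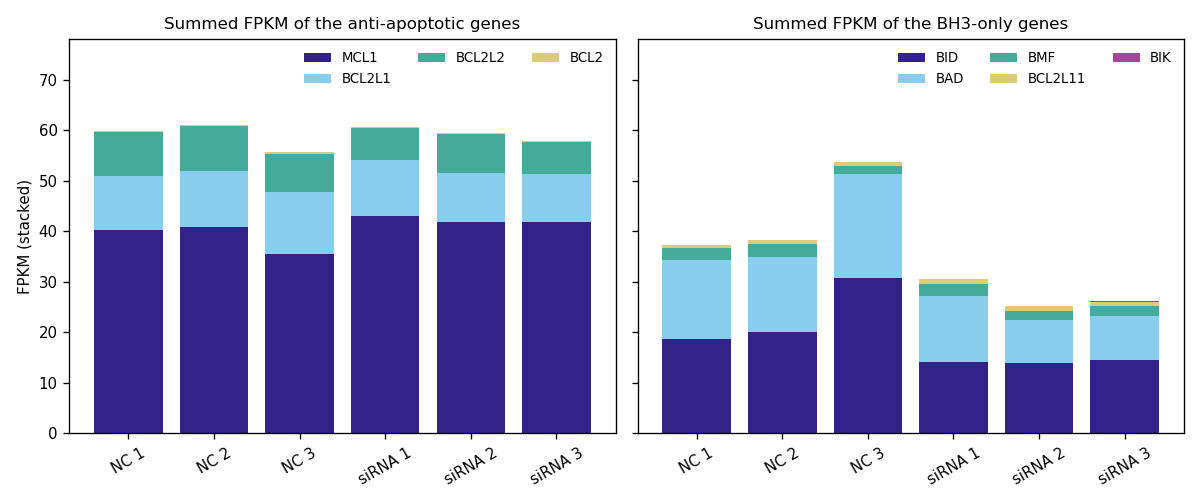
Stacked FPKM (vertical axis, from 0) of the 4 anti-apoptotic genes (left) and the 5 BH3-only genes (right) in each of the 6 libraries. The left columns lie between 55.7 and 61.2 FPKM, and the right columns range from 25.2 to 53.8 with the tallest in NC library 3.

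Across genes, the counts were tested with edgeR's quasi-likelihood test on 15870 genes whose mean FPKM reached 0.5, and a gene was called at an adjusted p under 0.05. Of the 10 family genes 8 were tested and 0 were called, against 3.09% of all genes tested. An unadjusted p was under 0.05 for 3 of the 8 (BAD, BID and BCL2L2), against 25.1% of all genes. The groups did not overlap in normalized CPM for 5 of the 8, against 38.5% of all genes. These were BAD, BID and BCL2L2, which were lower in the siRNA-labelled libraries (19% of all genes), and BAK1 and MCL1, which were higher (19.4%). DESeq2 called 2 of the 8, BID (adjusted p = 0.0276) and BAD (adjusted p = 0.0219), both lower, against 5.14% of all genes called lower. The edgeR fit without the filter called the same 2 genes, where 1.98% of all genes were called lower.

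Without NC library 3, edgeR called 3 of the 8 genes, all lower (BID, BAD and BCL2L2). That is 37.5%, beside 35.2% of all genes called and 18.3% called lower in the same fit, so the total share was near that of all genes. The median log2 fold change of the 8 genes was -0.19, and leaving out NC library 3 gave -0.18. The same medians over all genes tested were -0.02 and 0.01.

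**Figure D3:**
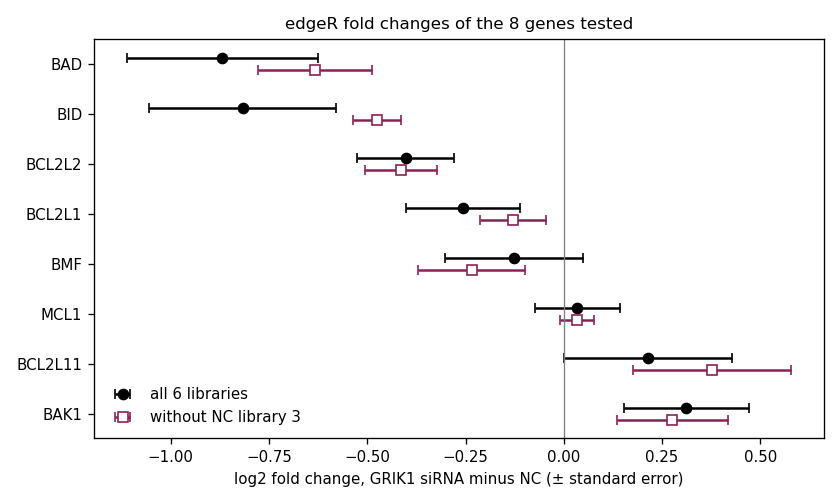
log2 fold change of the 8 tested genes (horizontal axis, GRIK1 siRNA minus NC, bars are standard errors) from edgeR with all 6 libraries (filled) and without NC library 3 (open). BAD and BID lie farthest to the left, at -0.87 and -0.82, and move towards 0 without NC library 3, with shorter bars.

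The pathway downstream of the family was described from lists of other apoptosis genes. The counts in each list stand against 3.09% of all genes called and 25.1% with an unadjusted p under 0.05 in the fit with all libraries, and against 35.2% called without NC library 3. Of 14 genes of the mitochondrial death pathway, 14 were tested and 1 was called (3 with an unadjusted p under 0.05), APAF1, the scaffold of the apoptosome that activates caspase 9. APAF1 rose from 1.45, 1.29 and 1.34 FPKM in the NC libraries to 2.44, 2.77 and 2.63 in the others, a log2 fold change of 0.85 ± 0.14 (SE, edgeR adjusted p = 0.0325). It was 0.91 without NC library 3 (adjusted p = 1.54e-05). The list's median was -0.28, and -0.04 without NC library 3. In that second fit VDAC2 and VDAC3, which encode pores of the outer mitochondrial membrane and the first of which binds BAK, were also called, both lower, with log2 fold changes of -0.31 and -0.17. ENDOG, a mitochondrial nuclease, had -0.63 (adjusted p = 0.141) and -0.43 (adjusted p = 0.0810).

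Of the 7 inhibitors of apoptosis, 5 were tested and 1 was called, with a median of -0.41, and -0.06 without NC library 3. BIRC6, a very large ubiquitin ligase that restrains caspases, rose from 4.26, 4.39 and 3.11 FPKM to 7.87, 7.64 and 7.82. Its log2 fold change was 0.91 ± 0.13 (SE, edgeR adjusted p = 0.0273) and 0.82 without NC library 3 (adjusted p = 4.8e-09). XIAP, the direct inhibitor of caspases 3, 7 and 9, had -0.48 (adjusted p = 0.206) and passed without NC library 3 at -0.20 (adjusted p = 0.0102). BIRC3 and BIRC5 did not pass in either fit. They had -0.62 and -0.41 with all libraries, and -0.21 and -0.06 without NC library 3. For both APAF1 and BIRC6 the 3 siRNA-labelled libraries lay above the 3 NC libraries. Neither was called when any library other than NC library 3 was left out, with adjusted p-values of 0.0716 to 0.223 for APAF1 and 0.0677 to 0.206 for BIRC6.

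Of the 13 other BCL2 family genes 8 were tested and 0 were called, with a median of -0.15, and 0 had an unadjusted p under 0.05. BAX, the other effector, had 43.4, 42.1 and 33.0 FPKM in NC and 39.3, 33.4 and 34.3 in the others. Its log2 fold change was -0.23 (adjusted p = 0.288), and -0.29 without NC library 3, which passed (adjusted p = 0.0025). BBC3, which encodes PUMA, had 0.46 (adjusted p = 0.204), and 0.28 without NC library 3 (adjusted p = 0.0740). PMAIP1, which encodes NOXA, had -0.32 (adjusted p = 0.461) and turned to 0.05 without NC library 3 (adjusted p = 0.730). BCL2A1 had -0.83 ± 0.71 (SE, adjusted p = 0.483), and -0.10 without NC library 3 (adjusted p = 0.938). The list's median without NC library 3 was 0.04, and 3 of the 8 were called there. These were BAX and the mitophagy receptors BNIP3 and BNIP3L, which are named after their values were seen. BNIP3 went from -0.16 with all libraries (adjusted p = 0.689) to 0.17 (adjusted p = 0.00970), so that leaving out this library turned its direction. BNIP3L went from 0.06 (adjusted p = 0.815) to 0.20 (adjusted p = 0.00282).

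The death receptor list had 9 of 12 genes tested and 0 called, with 1 unadjusted p under 0.05 and a median of -0.06. TRADD, an adaptor of the TNF receptor, had 11.2, 11.5 and 13.1 FPKM in NC and 10.9, 7.29 and 7.94 in the others. As with BAD, siRNA-labelled library 1 was the nearest to the NC libraries. Its log2 fold change was -0.55 (adjusted p = 0.144), and -0.41 without NC library 3 (adjusted p = 0.0256). FADD, CASP8 and TNFRSF10B had -0.50, -0.23 and 0.22 and did not pass in either fit. Without NC library 3 they had -0.03, -0.09 and 0.10. Together with TRADD, CFLAR and FAS were called without NC library 3, which makes 3 of the 9. Both are named after their values were seen, and went from -0.06 to -0.27 and from 0.08 to 0.29.

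Of 14 partners and regulators of the family 14 were tested and 0 were called, with 3 unadjusted p-values under 0.05 and a median of -0.08. BECN1, an autophagy protein whose BH3 segment binds BCL2, had 8.06, 8.03 and 10.3 FPKM in NC and 5.74, 5.87 and 5.76 in the others, a log2 fold change of -0.71 (adjusted p = 0.0696). HUWE1, a ubiquitin ligase that marks MCL1 for degradation, had 15.5, 14.3 and 6.68 FPKM against 25.8, 23.96 and 23.6, a log2 fold change of 0.95 (adjusted p = 0.0886). FBXW7, part of another ligase of MCL1, had 0.56 (adjusted p = 0.0862), and YWHAE, a 14-3-3 protein, had -0.42 (adjusted p = 0.207). Without NC library 3, 7 of the 14 were called, 5 higher and 2 lower, beside 35.2% of all genes. BECN1, HUWE1, FBXW7 and YWHAE were among them. The others were USP9X, FOXO3 and JUN, which are named after their values were seen. Each of them had 0.18 in that fit (edgeR adjusted p = 0.00543, 0.0472 and 0.0127). HUWE1 then had 0.69 (adjusted p = 3.19e-08) and BECN1 -0.50 (adjusted p = 4.74e-05).

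**Figure D4:**
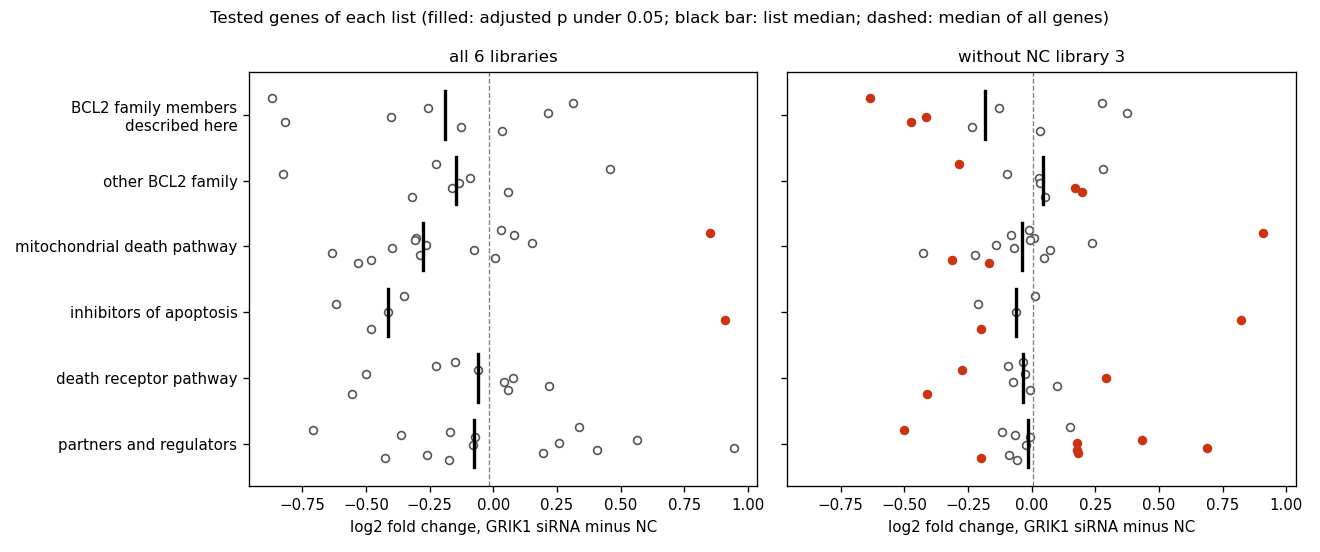
log2 fold change (horizontal axis, GRIK1 siRNA minus NC) of each tested gene in the 6 lists with all libraries (left) and without NC library 3 (right), with genes at an adjusted p under 0.05 filled. On the left 2 genes are filled, APAF1 and BIRC6, at 0.85 and 0.91.

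The tested family gene with the largest fold change was BAD, and the genes with the most similar profile were sought among all genes tested. Likeness was the largest absolute difference over the 6 libraries between log2 CPM profiles centred on their means. The closest was SLC25A6, an ADP/ATP carrier, within 0.11. MTFP1, ISOC2, CHCHD6 and CHCHD5 followed, within 0.15, 0.15, 0.16 and 0.16. Each had its highest value in NC library 3 and, in the siRNA-labelled libraries, its highest in library 1. This order follows from picking genes close to BAD and is no separate result. The centred BAD values were 0.26, 0.19 and 0.84 in NC and -0.03, -0.66 and -0.60 in the others.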

How the data were processed

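RNA sequencing of U87-MG cells gave 6 libraries, which were assigned to NC or GRIK1 siRNA by their titles. The authors deposited 1 table with raw read counts per gene and FPKM values. The deposited FPKM equal the count scaled to exonic length and to the total count, which held for 100% of the values within a tolerance of 0.0051. The submitters' processing notes name cutadapt 1.9.1, HISAT2, HTSeq and GRCh38, without the strand setting, and 0 value columns were left unassigned. Total counts lay between 11099909 and 14006968. Genes with few counts are the least precise, and limits cover counting error only.

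Counts were scaled by TMM and tested with edgeR 4.0.16 in R 4.3.3 (quasi-likelihood test, no covariate, Benjamini-Hochberg adjustment over 15870 genes with a mean FPKM of at least 0.5). Standard errors were computed from the fold change and its F statistic. log2 CPM used a prior count of 2. The tests were tried on simulated data. Alternatives were RLE scaling, no filter, a mean FPKM of at least 1, DESeq2 1.42.0, limma-trend in limma 3.58.1 on log2(FPKM + 1), the replicate number as a block, leaving out each library, and a log2 fold change threshold of 1. The unfiltered fit of BCL2 without NC library 3 was added after the data were seen. No 2 libraries held the same reads (mean chi-square per gene at least 2.29).

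The 10 genes and the other lists were chosen with earlier results of these data known. Named are the 10 genes, those overlapping them that have a symbol, every called gene of each other list with the smallest p-values up to 4 per list, the 5 genes closest in profile to the family gene with the largest fold change, and GRIK1. Exceptions are marked where they stand.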

Additional observations from a re-analysis of the deposited data

How the results depend on the processing

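The direction of the fold change of each of the 8 tested family genes was the same in the alternatives run. Other named genes reversed when 1 library was left out, and their ranges over those fits were -0.486 to 0.054 for PMAIP1 and -0.315 to 0.170 for BNIP3 (both positive only without NC library 3), -0.00925 to 0.198 for BNIP3L, -0.0523 to 0.291 for FAS, -0.275 to 0.104 for CFLAR, -0.0679 to 0.371 for MIR4435-2HG and, with few counts, -0.00849 to 1.78 for BCL2L1-AS1, -0.000514 to 0.993 for RN7SL600P and -2.71 to 0.351 for MIR3198-1. CFLAR also reversed in limma-trend, at 0.0435. Family genes called were 2 without the filter and 2 in DESeq2, both lower, and between 0 and 3 when 1 library was left out, of which 3 only without NC library 3. A median log2 fold change of -0.0865 was given by limma-trend on log2(FPKM + 1), and the cause was not tested. Among all genes, 1403 were called without the filter (727 higher, 676 lower), 1676 in DESeq2 (861 higher, 815 lower) and 140 as lower in limma-trend. Leaving out 1 library gave between 0 and 5591 (0 to 2682 higher, 0 to 2909 lower), with 0 whenever a library other than NC library 3 was left out.

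APAF1 and BIRC6 were not called in those 5 fits, so the calls in their lists ranged from 0 to 3 and from 0 to 2. Other BCL2 family genes called were 1 without the filter and between 0 and 3 when a library was left out, and death receptor genes between 0 and 3. Partners and regulators called were 2 without the filter, 3 in DESeq2 and between 0 and 7. With the replicate number as a block 0 genes were called over the whole table, and 0 in the mitochondrial and inhibitor lists. Deviations of same-numbered libraries from their group means correlated at -0.07, 0.04 and -0.04, and only number 2 correlated best with its own number. NC library 3 shifts the NC mean, so these values cannot tell whether the numbers pair the libraries. BCL2, fitted without the filter and without NC library 3, had -0.32 (adjusted p = 0.569 from edgeR).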
